A study of Mus musculus with 6 samples.

Results

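The mature miRNAs mmu-miR-150-5p, mmu-miR-155-5p, mmu-miR-126a-3p, mmu-miR-126a-5p and mmu-miR-142a-3p, known from blood and blood vessels, were followed through small RNA libraries made from mouse embryonic stem cells. They were picked by name, with earlier results of these data known, and make up 5 of the 1899 mature miRNA entries listed for each library. The cells were of strain 129/Ola, and 6 groups with 1 library each were sequenced. These were Wt1 knockout (KO) cells given 1 µM retinoic acid (RA), wild-type (WT) cells given 1 µM RA, untreated Wt1 KO cells, Wt1 KO cells given doxycycline (dox) for 12 h or for 24 h at 1 µg/ml, and untreated WT cells. The labels write the RA dose as 1 µm, read here as micromolar, and do not say how long it was given. Wt1 encodes a zinc finger transcription factor of kidney and gonad development, and dox was used to switch on an inducible Wt1 in cells without the endogenous gene. The labels do not say which KO line carries the inducible gene, nor name a dox-treated line without it, so the effect of induction, of dox itself and of the line cannot be told apart. Dishes were coated with gelatin, the medium held serum and leukemia inhibitory factor, and no feeder layer is named. Wt1 mRNA is not read in such libraries, so neither its loss nor its induction was checked.

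A miRNA is cut from a hairpin precursor and guides the Argonaute protein to messenger RNAs, mainly through its seed, the bases near its 5′ end. miR-150 is a miRNA of mature lymphocytes that represses the transcription factor c-Myb. miR-155 is induced in activated lymphocytes and macrophages. miR-142 is made in nearly all blood lineages, and miR-126 lies within Egfl7, an endothelial gene, and supports vessel integrity and blood stem cell quiescence. Embryonic stem cells are not a blood cell type, so these miRNAs are not among their known main miRNAs.

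Of the 5 members, 3 matched the mature sequences of RefSeq (build GRCm38.p6), and the seed, bases 2 to 8, is shown in capitals because it differs in all 3.
miR-155-5p: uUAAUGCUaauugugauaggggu
miR-126a-3p: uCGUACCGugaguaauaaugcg
miR-142a-3p: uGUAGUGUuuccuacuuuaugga
None of the other mature miRNAs among the 1738 entries of that table has the same bases 2 to 8 as any of these 3. The members miR-150-5p and miR-126a-5p are named only. On GRCm38.p6, miR-155-5p lies at chr16:84714143-84714165 on the plus strand, in the last annotated exon of the long noncoding RNA gene Mir155hg. miR-126a-3p lies at chr2:26591402-26591423 on the plus strand, within the protein-coding gene Egfl7, and its hairpin falls inside an exon of 1 annotated Egfl7 transcript. miR-142a-3p lies at chr11:87756903-87756925 on the plus strand, within the noncoding gene Mir142hg and outside its annotated exons. The build used for the deposited counts is not given in the sources used here, and these positions come from matching the miRNA names.

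The depth of the libraries limits these scarce miRNAs. The number of uniquely matched reads ran from 83626 in Wt1 KO with RA to 6106104 in WT with RA, a 73.0-fold range. Levels are given as counts and as normalised CPM, which scale reads to the same library total after a correction by trimmed mean of M values factors. A count of 3, the limit that a count of 0 allows, equals 27.8 normalised CPM in Wt1 KO with RA and between 0.448 and 2.75 in the other 5 libraries. With 1 library per group no comparison has a replicate check and none was tested. Intervals in brackets are 95%, cover counting error only and hold no spread between libraries. They take reads as independent. PCR reads without molecular identifiers are not independent molecules, so the intervals may be too narrow. Stem cell miRNAs were read in every library. The summed share of 8 listed stem cell miRNAs of the miR-290 and miR-302 clusters was 6.15% in Wt1 KO with RA, 0.551% in WT with RA, between 9.87% and 16.2% in the other 3 Wt1 KO libraries, and 10.1% in untreated WT. The sum rests mainly on the miR-290 cluster. The listed miR-302a-3p, miR-302b-3p and miR-302d-3p had 34.0, 19.8 and 102 normalised CPM in untreated Wt1 KO. In untreated WT they had more, 198, 97.3 and 455. In bulk RNA, fewer cells that make a miRNA and less of it in each cell cannot be told apart.

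The 5 members together held little of each library. They made up 0.0610% of the reads in Wt1 KO with RA, 0.0168% in WT with RA, 0.246% in untreated Wt1 KO, 0.399% and 0.321% at dox 12 h and dox 24 h, and 0.0946% in untreated WT. miR-150-5p gave 43.1% of the members' reads in Wt1 KO with RA and 38.8% in WT with RA, against 89.2% to 96.4% in the 4 libraries without RA.

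miR-150-5p was by far the most read member, with 21201 reads over the 6 libraries. Its counts were 22 in Wt1 KO with RA, 398 in WT with RA, 4144 in untreated Wt1 KO, 4720 at dox 12 h, 11019 at dox 24 h and 898 in untreated WT. As normalised CPM these were 204 [128 to 308], 59.5 [53.8 to 65.6], 2937 [2848 to 3028], 4170 [4052 to 4291], 3239 [3179 to 3300] and 824 [771 to 880] in the same libraries. The 3 Wt1 KO libraries without RA were highest, untreated WT stood between, and the libraries with RA were lowest. The highest level was 70.1-fold the lowest, and each neighbour in this order differed from the next by more than counting error. By count miR-150-5p ranked 152 among all entries in Wt1 KO with RA, 235 in WT with RA, between 33 and 35 in the Wt1 KO libraries without RA, and 71 in untreated WT.

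miR-155-5p was the steadiest of the members. It had 6 reads in Wt1 KO with RA, 360 in WT with RA, 101 in untreated Wt1 KO, 39 at dox 12 h, 320 at dox 24 h and 73 in untreated WT. Its normalised CPM were 55.5 [20.4 to 120.9], 53.8 [48.4 to 59.6], 71.6 [58.3 to 87.0], 34.5 [24.5 to 47.1], 94.1 [84.0 to 105] and 67.0 [52.5 to 84.3] in those libraries. The level at dox 12 h was the lowest and that after 24 h the highest, 2.73-fold apart. Untreated Wt1 KO, untreated WT, Wt1 KO with RA and WT with RA followed each other in the middle with no neighbours apart beyond counting error.

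The 2 arms of the miR-126a hairpin are both members. miR-126a-3p, the arm best known from endothelium, had 6 reads in Wt1 KO with RA, 143 in WT with RA, 52 in untreated Wt1 KO, 82 at dox 12 h, 188 at dox 24 h and 24 in untreated WT. Its normalised CPM were 55.5 [20.4 to 120.9], 21.4 [18.0 to 25.2], 36.9 [27.5 to 48.3], 72.5 [57.6 to 89.9], 55.3 [47.6 to 63.8] and 22.0 [14.1 to 32.8]. By level both WT libraries were below all 4 Wt1 KO libraries, but the interval of Wt1 KO with RA, on 6 reads, includes both WT levels. The 2 WT libraries did not differ beyond counting error. The arm miR-126a-5p had 17 reads in Wt1 KO with RA, 124 in WT with RA, 48 in untreated Wt1 KO, 56 at dox 12 h, 117 at dox 24 h and 12 in untreated WT. Its normalised CPM were 157 [91.7 to 252], 18.5 [15.4 to 22.1], 34.0 [25.1 to 45.1], 49.5 [37.4 to 64.3], 34.4 [28.4 to 41.2] and 11.0 [5.69 to 19.2]. Again both WT libraries were lowest, while Wt1 KO with RA, on 17 reads, stood highest, 14.3-fold above untreated WT.

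miR-142a-3p was barely read. It had 0 reads in Wt1 KO with RA and in WT with RA, 6 in untreated Wt1 KO, 1 at dox 12 h, 6 at dox 24 h and 0 in untreated WT. The 6 reads in untreated Wt1 KO equal 4.25 normalised CPM [1.56 to 9.26] and the 6 at dox 24 h 1.76 [0.647 to 3.84]. By the 3-count limit, a count of 0 allows up to 27.8 normalised CPM in Wt1 KO with RA, 0.448 in WT with RA and 2.75 in untreated WT. The level in WT with RA was therefore limited most closely, and in Wt1 KO with RA a level several times that of untreated Wt1 KO could have gone unseen.

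**Figure D1:**
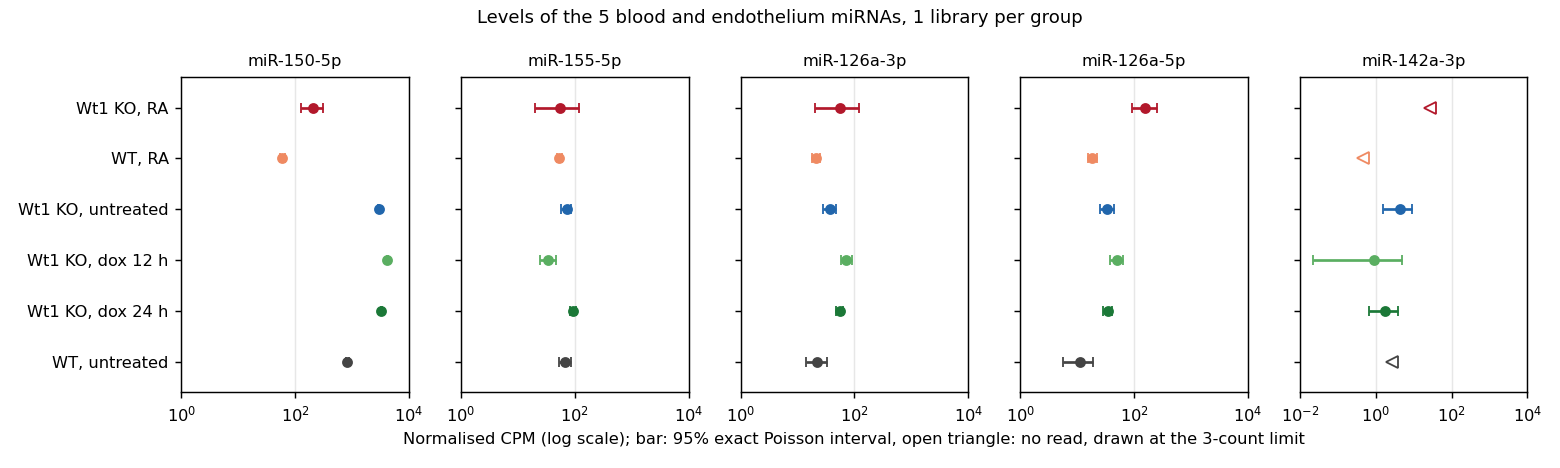
Normalised CPM on a log axis of the 5 blood and endothelium miRNAs in each of the 6 libraries, with 95% exact Poisson intervals; an open triangle marks a library without a read, drawn at its 3-count limit. miR-150-5p ran from 59.5 in WT with RA to 4170 at dox 12 h, while miR-155-5p stayed between 34.5 and 94.1.

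Ratios below are log2 ratios of normalised counts. The size rule calls a miRNA higher at a log2 ratio of 1 or more, and lower at -1 or less, if the counting interval excludes 0. The share of entries called is taken over the 351 entries whose mean count reached 50. Of the members 4 passed that minimum, and miR-142a-3p, with a mean count of 2.17, did not. The mean is of unscaled counts, so a miRNA can pass through its reads in the deep libraries alone.

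Untreated Wt1 KO was set against untreated WT to ask which of the members differ where Wt1 is missing. miR-150-5p and miR-126a-5p were higher in the KO library. Of the 4 analysed members 2 were higher and none lower, where 12.3% of all analysed entries were higher and 15.4% lower. miR-150-5p had a log2 ratio of 1.83 [1.73 to 1.94], a 3.56-fold higher level, at place 11 from the top of the 351 entries. miR-126a-5p was at 1.59 [0.69 to 2.68] on 48 reads in Wt1 KO and 12 in WT, at place 17 from the top. Its partner arm miR-126a-3p was at 0.73 [0.018 to 1.51] and miR-155-5p at 0.095 [-0.35 to 0.55], neither past the rule. The median over the 4 members was 1.16, against 0.11 over all analysed entries. miR-142a-3p had 6 reads in Wt1 KO and 0 in WT, and the lower end of its ratio's counting interval, -0.14, lies below 0. Scaled as CPM of the total, 25 entries in place of 43 were higher and 76 in place of 54 lower, and both calls of the members were kept, at 1.47 for miR-150-5p and 1.24 for miR-126a-5p.

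RA, made from vitamin A and used to make stem cells differentiate, went with a far lower level of miR-150-5p in both genotypes. In WT cells 1 of the 4 analysed members was lower with RA and none higher, where 24.2% of all analysed entries were lower and 22.5% higher. miR-150-5p was at -3.79 [-3.97 to -3.62], a 13.8-fold lower level in WT with RA. miR-126a-5p was at 0.74 [-0.11 to 1.74], miR-126a-3p at -0.044 [-0.68 to 0.64] and miR-155-5p at -0.32 [-0.68 to 0.07], and none of these intervals excluded 0. The median over the 4 members was -0.18, against 0.14 over all analysed entries.

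In Wt1 KO cells 1 analysed member was higher with RA and 1 lower, where 23.4% of all analysed entries were higher and 23.1% lower. miR-150-5p was at -3.85 [-4.53 to -3.25], 14.4-fold lower, and only 8 of the 351 entries had a lower ratio. miR-126a-5p was at 2.19 [1.32 to 3.03], 4.56-fold higher, from 17 reads with RA and 48 without in a deeper library. miR-126a-3p was at 0.58 [-0.92 to 1.81] and miR-155-5p at -0.36 [-1.85 to 0.81], with wide intervals that rest on 6 reads each in Wt1 KO with RA. The balance of all calls depended on the scaling here: 82 entries were higher and 81 lower, but scaling as CPM of the total gave 124 and 34, the median of ratios gave 91 and 62, and CPM that leaves out the miR-290 and miR-302 clusters gave 113 and 42. miR-150-5p stayed lower under each of them, at -3.15 as CPM of the total.

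The size of the RA response was then compared between the genotypes. For miR-150-5p the response in Wt1 KO minus that in WT was -0.055 [-0.68 to 0.57] on the log2 scale, a difference that changed sign in 3 of 9 alternatives. miR-155-5p differed by -0.046 [-1.25 to 1.15] and miR-126a-3p by 0.63 [-0.70 to 1.96]. miR-126a-5p had the higher response in Wt1 KO, by 1.45 [0.29 to 2.60], the 1 member past the size rule where 21.7% of all analysed entries had a higher and 18.5% a lower response in Wt1 KO. That background of 76 higher and 65 lower entries depended on the scaling. Plain CPM gave 125 higher and 28 lower, median-of-ratios factors gave 88 higher and 50 lower, and CPM that leaves out these stem cell clusters gave 131 higher and 23 lower. Without a minimum count the difference of miR-126a-5p was 1.08 [-0.07 to 2.23] and the call was lost.

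With RA in both genotypes, Wt1 KO again had more miR-150-5p and miR-126a-5p than WT. Of the analysed members 2 were higher and none lower, where 17.9% of all analysed entries were higher and 19.4% lower. miR-150-5p was at 1.77 [1.09 to 2.40], 3.42-fold higher in Wt1 KO, and miR-126a-5p at 3.08 [2.26 to 3.82], 8.44-fold higher. miR-126a-3p was at 1.37 [-0.09 to 2.54] on 6 reads in Wt1 KO, and was past the rule under each of the 3 other scalings, between 1.57 and 1.74. miR-155-5p was at 0.046 [-1.41 to 1.18]. The genotype ratios of miR-150-5p in untreated cells, 1.83, and in RA-treated cells, 1.77, come from libraries that are not shared between the comparisons. Their scaling factors were taken over all 6 libraries together. That the ratios are close restates the RA response difference of -0.055 and is not a second observation. Over all entries the split was 63 higher and 68 lower, while CPM of the total gave 81 and 42, the median of ratios 78 and 51, and CPM without the stem cell clusters 92 and 38.

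**Figure D2:**
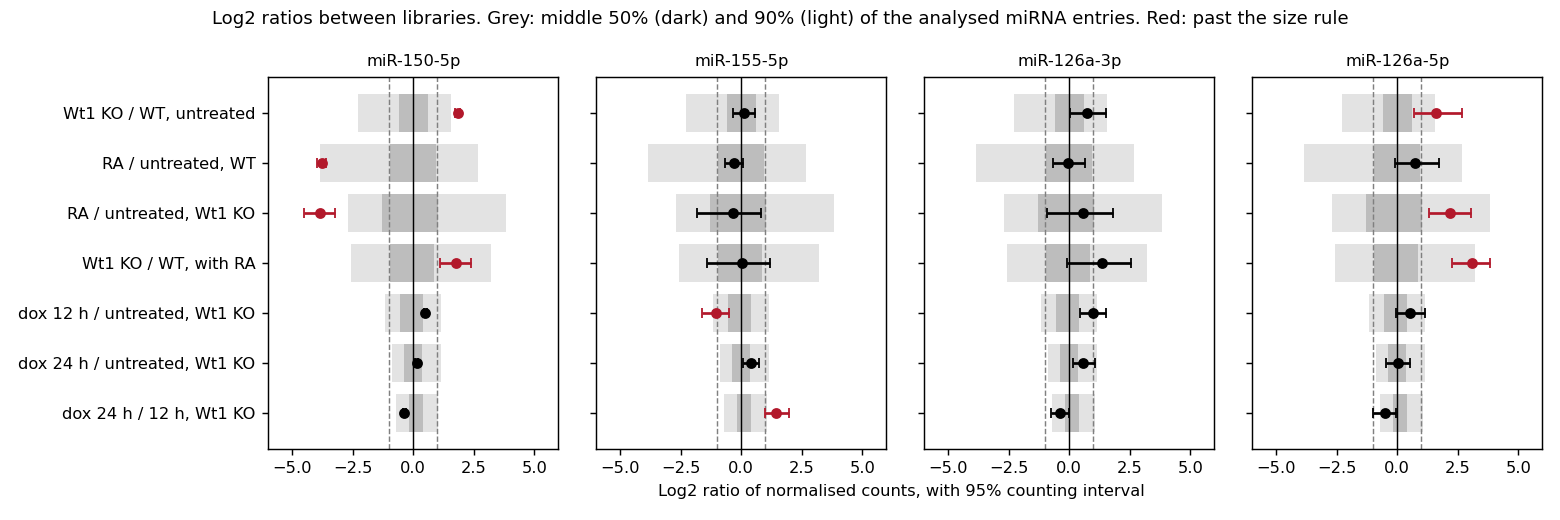
Log2 ratios of normalised counts between libraries for the 4 members whose mean count reached 50, with 95% counting intervals; grey bands hold the middle 50% and 90% of all analysed entries and dashed lines mark the size rule. miR-150-5p was past the rule in the 4 comparisons of genotype and RA, at 1.83, -3.79, -3.85 and 1.77, and in none of the dox comparisons.

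Dox, given to switch on the inducible Wt1, was compared with the untreated Wt1 KO library to describe the levels after dox. This library also entered the genotype comparison and that of RA in Wt1 KO, so these comparisons are not independent. The high miR-150-5p of untreated Wt1 KO was not lower after dox. It was 2937 normalised CPM in untreated Wt1 KO, 4170 after 12 h and 3239 after 24 h, against 824 in untreated WT. At dox 12 h 1 analysed member was lower and none higher, where 8.83% of all analysed entries were lower and 4.27% higher. That member was miR-155-5p, at -1.05 [-1.63 to -0.51] from 39 reads after 12 h and 101 in untreated Wt1 KO. It lies at the edge of the rule, and the call was lost under all 3 other scalings, where it was between -0.98 and -0.72, and with a minimum mean count of 10 or none. miR-126a-3p was at 0.97 [0.46 to 1.51], just inside the rule, and was past it in those same 5 alternatives, between 1.03 and 1.29. miR-150-5p was at 0.51 [0.45 to 0.57] and miR-126a-5p at 0.54 [-0.04 to 1.13]. The split over all entries was 15 higher and 31 lower, while CPM of the total gave 35 and 13, the median of ratios 21 and 23, and CPM without the stem cell clusters 44 and 9.

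At dox 24 h no analysed member was past the rule, where 5.70% of all analysed entries were higher and 3.70% lower. miR-126a-3p was at 0.58 [0.13 to 1.06], miR-155-5p at 0.39 [0.07 to 0.73], miR-150-5p at 0.14 [0.09 to 0.19] and miR-126a-5p at 0.016 [-0.48 to 0.53]. The median over the 4 members was 0.27, against -0.0061 over all analysed entries. As CPM of the total the split over all entries was 31 higher and 10 lower, in place of 20 and 13, and as CPM without the stem cell clusters it was 37 and 6.

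Between the dox times 1 analysed member was higher at 24 h than at 12 h and none lower, where 4.27% of all analysed entries were higher and 0.855% lower. This was miR-155-5p, at 1.44 [0.97 to 1.97], a 2.72-fold higher level from 320 reads at 24 h and 39 at 12 h. It held place 6 from the top of the 351 entries, and its ratio stayed between 1.42 and 1.49 under all 10 alternatives. miR-150-5p was at -0.36 [-0.41 to -0.32], miR-126a-3p at -0.39 [-0.77 to 0.0017] and miR-126a-5p at -0.52 [-0.996 to -0.038]. miR-142a-3p had 6 reads at 24 h and 1 at 12 h.

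The other products of the members' hairpins were counted too. For miR-150 nearly all reads came from the 5p arm, 21201 against 42 of miR-150-3p over the 6 libraries. miR-150-3p had 0 reads in both RA libraries, 14 in untreated Wt1 KO, 9 and 16 at dox 12 h and dox 24 h and 3 in untreated WT. miR-155-3p had 1 read in all. miR-126b, annotated on the strand opposite miR-126a, had 2 reads of its 3p arm and none of its 5p arm in the 6 libraries, and miR-142b, opposite miR-142a, had none.

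The miR-126a arms were read in like numbers, 374 of the 5p and 495 of the 3p arm. The 5p arm gave 73.9% [51.6% to 89.8%] of the hairpin's reads in Wt1 KO with RA, 46.4% [40.3% to 52.6%] in WT with RA, 48.0% [37.9% to 58.2%] in untreated Wt1 KO, 40.6% [32.3% to 49.3%] and 38.4% [32.9% to 44.1%] at dox 12 h and dox 24 h, and 33.3% [18.6% to 51.0%] in untreated WT. Wt1 KO with RA, on 23 reads of both arms, was the 1 library above 50%, and its exact binomial interval met that of WT with RA only at the edge. It overlapped more with the interval of untreated Wt1 KO, which reaches 58.2%, so it does not stand apart from that library.

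For miR-142a the arm that is not a member was the more read one. The RefSeq hairpin Mir142, at chr11:87756864-87756927 on the plus strand of GRCm38.p6, is shown to place its arms, whose counts follow; capitals mark miR-142a-5p on the left and miR-142a-3p on the right.
Mir142: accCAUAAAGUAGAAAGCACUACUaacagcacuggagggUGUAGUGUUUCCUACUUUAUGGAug
miR-142a-5p had 2 reads in Wt1 KO with RA, 3 in WT with RA, 4 in untreated Wt1 KO, 33 at dox 12 h, 71 at dox 24 h and 2 in untreated WT. Both dox libraries stood above all others in count, with 2.84 normalised CPM in untreated Wt1 KO, 29.2 at dox 12 h and 20.9 at dox 24 h. The 2 reads in Wt1 KO with RA equal 18.5 normalised CPM [2.24 to 66.9], which does not stand apart from the dox libraries. The log2 ratio to untreated Wt1 KO was 3.19 [1.87 to 5.32] at 12 h and 2.79 [1.46 to 4.80] at 24 h. Its mean count was below the minimum, so it is not among the 351 entries and their shares do not cover it. With a minimum mean count of 10, which it reaches, 36 entries of a larger set were higher at dox 12 h and 40 at dox 24 h. The 5p arm gave 40.0% [12.2% to 73.8%] of only 10 reads of the hairpin in untreated Wt1 KO, 97.1% [84.7% to 99.9%] at dox 12 h and 92.2% [83.8% to 97.1%] at dox 24 h. All reads of the hairpin were of the 5p arm in Wt1 KO with RA, WT with RA and untreated WT too, on only 2, 3 and 2 reads.

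**Figure D3:**
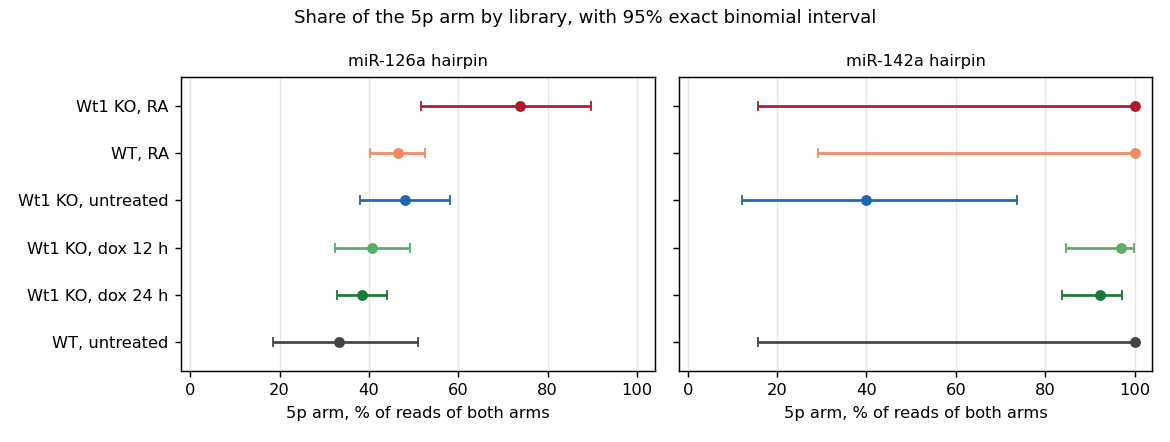
Share of the 5p arm among the reads of both arms of the miR-126a and miR-142a hairpins in each library, with 95% exact binomial intervals. For miR-126a the share was highest, at 73.9%, in Wt1 KO with RA and lowest, at 33.3%, in untreated WT, and for miR-142a it was above 90% in both dox libraries, on 34 and 77 reads, and 100% in Wt1 KO with RA, WT with RA and untreated WT, on 2, 3 and 2 reads, against 40.0% in untreated Wt1 KO on 10 reads.

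A list of other blood miRNAs was read in the same way. Its defining members of red cells and myeloid cells were absent: miR-451a and both arms of miR-144, miRNAs of the red cell lineage, and both arms of miR-223, a miRNA of granulocytes and monocytes, had 0 reads in all 6 libraries. Even in the deepest library, WT with RA, this allows at most 0.448 normalised CPM for each. In all 5 of the 13 entries that the list's 14 names cover had no read. The summed level of the list was 1027 normalised CPM in Wt1 KO with RA, 1789 in WT with RA, 763 in untreated Wt1 KO, 1124 and 1245 at dox 12 h and dox 24 h, and 754 in untreated WT. It was thus highest in WT with RA, where miR-150-5p was lowest. Of the 11978 summed reads there, the joint entry of miR-486a-5p and miR-486b-5p gave 7085 and miR-342-3p gave 4699. Among the scarcer entries, miR-142a-5p, miR-146a-5p, miR-146b-5p and miR-150-3p were highest in other libraries. miR-342-5p had like levels in WT with RA and at dox 24 h, 21.96 and 21.75 normalised CPM.

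Of the list 2 entries passed the minimum count. The joint entry of miR-486a-5p and miR-486b-5p, known from red cells and also from muscle, had 694 normalised CPM in Wt1 KO with RA, 1058 in WT with RA, 482 in untreated Wt1 KO, 790 and 844 at dox 12 h and dox 24 h and 438 in untreated WT. miR-342-3p, from an intron of the gene Evl, had 305, 702, 229, 253, 304 and 284 normalised CPM in the same libraries. Both were higher with RA in WT, miR-486a/b-5p at 1.27 [1.14 to 1.41] and miR-342-3p at 1.31 [1.14 to 1.48], opposite in sign to miR-150-5p, where 22.5% of all analysed entries were higher. With RA, miR-342-3p was also lower in the Wt1 KO than in the WT library, at -1.20 [-1.74 to -0.71], where 19.4% of all analysed entries were lower. The median over all entries shifted here by 0.24 as CPM of the total and by 0.37 without the stem cell clusters. A shift of either size would take miR-342-3p inside the rule. Neither entry was past the rule in another comparison.

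The scarcer entries of the list were the miR-146 pair, both induced by inflammatory signals, and miR-342-5p. miR-146b-5p had 1 read in Wt1 KO with RA, 32 in WT with RA, 25 in untreated Wt1 KO, 31 and 154 at dox 12 h and dox 24 h and 9 in untreated WT. It was higher at dox 24 h than in untreated Wt1 KO, at 1.34 [0.74 to 2.03]. Its mean count was below the minimum, so this call too has no share to be read against. miR-146a-5p had at most 15 reads in any library, and miR-342-5p between 0 and 147.

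**Figure D4:**
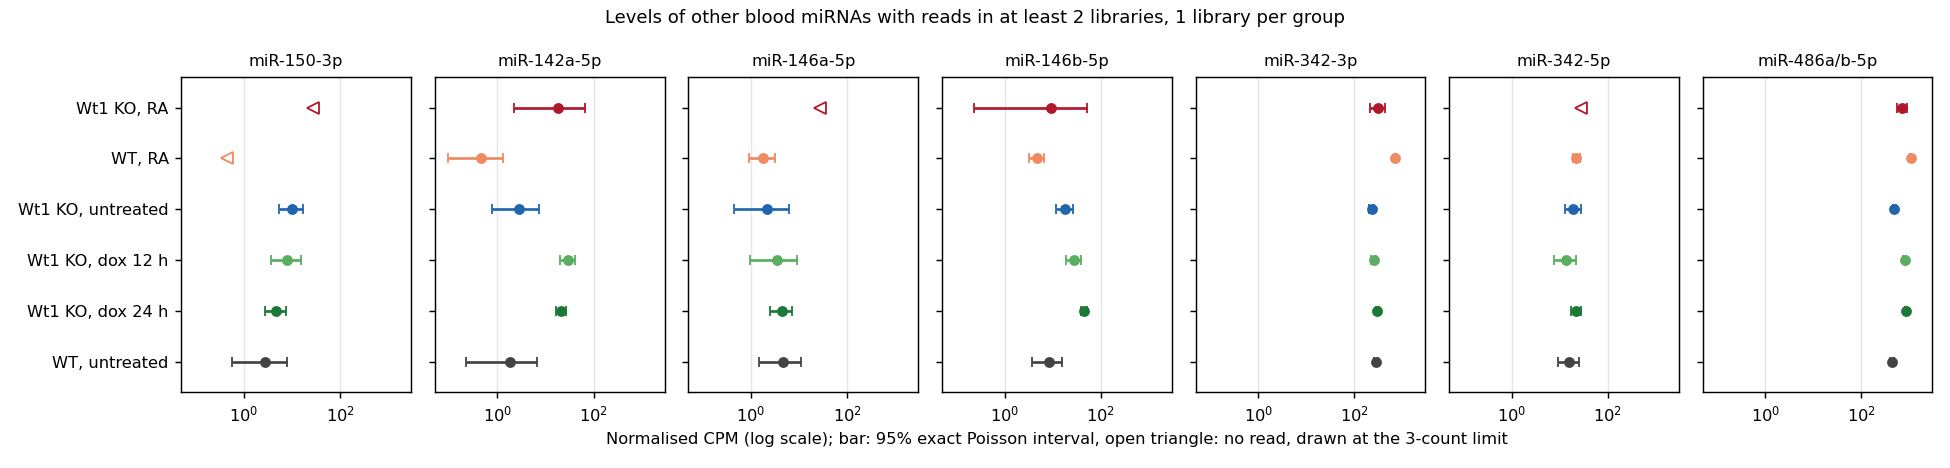
Normalised CPM on a log axis of the listed other blood miRNAs with reads in at least 2 libraries, with 95% exact Poisson intervals and open triangles at the 3-count limit where no read was counted. miR-486a/b-5p and miR-342-3p were highest in WT with RA, at 1058 and 702, and miR-142a-5p stood at 29.2 and 20.9 in the dox libraries.

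Markers of further cell types moved between the libraries beside the members. The 5 fibroblast and smooth muscle miRNAs, among them miR-143-3p and miR-21a-5p, summed to 0.613% of the reads in Wt1 KO with RA, 0.154% in WT with RA, 0.0613% in untreated Wt1 KO, 0.0952% and 0.0992% at dox 12 h and dox 24 h and 0.269% in untreated WT. The sum is thus highest in the library where miR-126a-5p was highest. Against untreated Wt1 KO, miR-143-3p and miR-21a-5p were higher there, at log2 ratios of 2.97 and 1.80, where 23.4% of all analysed entries were higher. miR-199a-5p, at 4.43, and miR-214-3p, at 7.52, were higher too, on 13 reads each and below the minimum count. Between the untreated genotypes the members moved differently, with miR-143-3p at 1.08 and miR-21a-5p at -2.98 in Wt1 KO over WT. miR-143-3p gave 372 of the 513 summed reads in Wt1 KO with RA. In untreated WT miR-21a-5p gave 2621 of 2864 reads. It was highest there, at 2406 normalised CPM against 1064 in Wt1 KO with RA. miR-145a-5p of this list had 0 reads in Wt1 KO with RA. By the 3-count limit that allows up to 27.8 normalised CPM, above its level in any other library. miR-214-3p had 120 normalised CPM in Wt1 KO with RA and 0 reads in the 3 Wt1 KO libraries without RA. The 5 miRNAs of skeletal and heart muscle summed to 222 normalised CPM in Wt1 KO with RA, 424 in WT with RA, from 8.50 to 13.8 in the Wt1 KO libraries without RA and 108 in untreated WT. miR-133a-3p gave nearly all of these reads, and miR-1a-3p and miR-206-3p had none in any library. The 3 liver miRNAs summed to between 111 and 194 normalised CPM, and miR-122-5p of that list had at most 8 reads. Their part in the members' levels was not tested.

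The entries whose pattern over the 6 libraries was most like that of each member were found by the root-mean-square distance of log2 normalised CPM, each centred on its own mean. For miR-150-5p they were miR-106a-5p at a distance of 0.56, miR-294-5p at 0.56 and miR-18b-3p at 0.69, where the median distance to all analysed entries was 2.33. miR-106a-5p and miR-18b-3p come from an X-linked relative of the miR-17 cluster and miR-294-5p from the miR-290 cluster of stem cells. miR-106a-5p had 74.1 normalised CPM in Wt1 KO with RA, 13.0 in WT with RA, 680 in untreated Wt1 KO, 430 and 584 at dox 12 h and dox 24 h and 196 in untreated WT. It shares with miR-150-5p the order of RA below no RA and of WT below Wt1 KO, while its level at dox 12 h is below that of untreated Wt1 KO. The other members lay around that median distance from miR-150-5p, at 1.99 for miR-126a-3p, 2.28 for miR-155-5p and 2.56 for miR-126a-5p.

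For miR-126a-5p the nearest entries were miR-143-3p at 0.37, miR-376b-3p at 0.38 and miR-101a-3p at 0.56. miR-143-3p, a miRNA of smooth muscle and mesenchyme, had 3443 normalised CPM in Wt1 KO with RA, 456 in WT with RA, 438 in untreated Wt1 KO, 609 and 545 at dox 12 h and dox 24 h and 206 in untreated WT. For miR-126a-3p they were miR-128-3p at 0.27, miR-187-3p at 0.34 and miR-15a-5p at 0.35, and its own partner arm stood at 0.78. For miR-155-5p they were miR-151-5p at 0.37, miR-3057-5p and miR-877-5p, both at 0.38, against a median of 0.83. Each distance rests on 6 libraries that share their scaling.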

How the data were processed

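Small RNA of 2 gel bands was ligated to adapters and amplified by PCR, per the labels' protocols. The deposited tables hold read counts per mature miRNA, split by the file headers into unique matches and multi-matches. For the aligner, mismatches, miRBase version, genome build and read filters the sources used here give nothing. Unique-match counts were used as deposited, and no member had a multi-match read. The 6 libraries were grouped by their labels, 1 library per group. TMM factors from edgeR 4.0.16 under R 4.3.3 were taken over the 351 of 1899 entries whose mean count reached 50, and were 1.29 in Wt1 KO with RA, 1.10 in WT with RA, 0.798 in untreated Wt1 KO, 0.922 and 0.937 at dox 12 h and dox 24 h and 1.02 in untreated WT. Log2 ratios used a mean prior count of 0.5 per library, shared out by library size, and intervals were exact conditional binomial (Clopper-Pearson), exact Poisson for levels and, for the difference of RA responses, by the delta method. No test or p-value is given, since 1 library per group leaves no estimate of the spread. The procedure was also run on simulated counts with known changes. These hold Poisson counting error only, so they cannot show how it performs with spread between libraries of a group. Alternatives were other scalings (including the median of ratios, DESeq2 1.42.0), other minimum counts, a prior count of 2 and adding multi-matches. A minimum mean CPM of 20, and leaving Wt1 KO with RA out of the minimum and factors, were chosen after the data were seen. Besides the 5 members, the text names by rule the other products of their hairpins, a list of other blood miRNAs and the 3 entries nearest in pattern to each member. The members and lists were chosen with earlier results of these data known.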

Additional observations from a re-analysis of the deposited data

Results flagged for a closer look

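miR-126a-3p had RA responses of opposite sign in the genotypes, with log2 ratios of 0.58 [-0.92 to 1.81] in Wt1 KO and -0.044 [-0.68 to 0.64] in WT. The difference was not tested, both intervals include 0, and with 1 library per group the sign of each rests on 1 pair of libraries. The sign in WT turned in 1 of 10 alternatives.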

How the results depend on the processing

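The 4 analysed members gave 32 values, recomputed under up to 10 alternatives. Of 308 recomputed values 293 kept their side of the size rule, and no called value changed sign. The 15 changes concerned 5 values: miR-155-5p and miR-126a-3p at 12 h of dox, miR-126a-3p in Wt1 KO against WT with RA, and the RA response difference of miR-126a-5p and of miR-126a-3p, the last at 1.34 [0.01 to 2.67] as CPM without the stem cell clusters. Depth limits Wt1 KO with RA most. No paired analysis was possible because each group has 1 library. As CPM of the total, miR-150-5p was at 1.47 for untreated Wt1 KO over WT, -3.15 for RA in Wt1 KO, and 0.71 and 0.37 for dox at 12 h and 24 h. By the median of ratios it was at 0.58 and 0.22 for dox at 12 h and 24 h. As CPM without the stem cell clusters it was at 1.49 in untreated Wt1 KO against WT, 0.83 and 0.45 for dox, and 0.66 for the RA response difference. With a minimum of 10 it was at 1.71 in untreated Wt1 KO against WT and 0.25 for dox at 24 h, and with none at 0.61 and 0.25 for dox. The median over all entries shifted under CPM of the total by -0.35 for untreated Wt1 KO over WT, 0.69 for RA in Wt1 KO, 0.24 in Wt1 KO against WT with RA, and 0.20 and 0.23 for dox. Without the stem cell clusters it shifted by -0.34, 0.56, 0.37, 0.32 and 0.30, and by -0.14 for RA in WT. By the median of ratios it shifted by 0.17 for RA in Wt1 KO and 0.20 in Wt1 KO against WT with RA. Counts of called entries moved as follows. As CPM of the total they were 25 higher for untreated Wt1 KO over WT, 124 higher and 34 lower for RA in Wt1 KO, 42 lower in Wt1 KO against WT with RA, 35 higher and 13 lower at 12 h of dox, 31 higher at 24 h, and 125 with a higher and 28 with a lower RA response in Wt1 KO. Without the stem cell clusters they were 26 higher for untreated Wt1 KO over WT, 42 lower for RA in Wt1 KO, 38 lower in Wt1 KO against WT with RA, 44 higher and 9 lower at 12 h, 37 higher and 6 lower at 24 h, 5 lower at 24 h against 12 h, and 131 and 23 for the RA response. With a minimum of 10 they were 36 higher at 12 h, 40 higher and 24 lower at 24 h, and 25 and 13 for 24 h against 12 h. With a minimum of 200 they were 21 and 32 for untreated Wt1 KO over WT, 50 and 52 for RA in WT, 7 and 16 at 12 h, 11 and 7 at 24 h, and 8 higher for 24 h against 12 h. Without a minimum they were 83 lower for untreated Wt1 KO over WT, 121 and 156 for RA in WT, 110 lower in Wt1 KO against WT with RA, 51 higher at 12 h, 48 and 31 at 24 h, 23 and 23 for 24 h against 12 h, and 118 with a lower RA response in Wt1 KO. Entries lower at 24 h against 12 h were 5 with multi-matches and 6 with a minimum mean CPM of 20, against 3.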
